A study of Mus musculus with 2 samples.

Results

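Transcripts of 42 genes listed under the Forkhead box (Fox) symbols were measured by RNA-seq in whole mouse embryos. The genes were taken by symbol alone, through the Ensembl identifier of each, with no use of their measured values. Of the 42, 41 matched a locus among the 34624 loci of the deposited tables, while Foxl1 matched none, so its level is not analysed here and it enters only the sequence comparisons. Where genes overlap, the authors counted them together in a joined locus. The loci of 6 members (Foxd3, Foxj2, Foxo1, Foxp1, Foxp3 and Foxq1) are joined with another gene, and their values cannot be given to the Fox gene alone. The list also holds Foxred1, an oxidoreductase that serves in the assembly of mitochondrial complex I and carries no forkhead domain. It is kept here by its symbol and named wherever it matters.

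The series has 1 group: untreated embryos at embryonic day 10.5, bred from CBA/Ca × C57Bl/10 crosses, with total RNA from the whole body and 2 replicates. There is no second condition, so levels are described and no condition is compared with another. Whether a replicate was a single embryo or a pool is not in the labels, so the spread between the 2 may be technical. In whole embryos, few cells with much of a transcript and many cells with little cannot be told apart. Levels are RPKM, reads per kilobase of transcript scaled to library size, as the authors deposited them, given for replicate 1 and then replicate 2.

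Fox proteins bind DNA through the forkhead or winged-helix domain, whose recognition helix lies in the major groove. FoxA proteins open closed chromatin in endoderm and the floor plate. FoxC and FoxF proteins shape mesoderm and mesenchyme, FoxJ1 switches on motile cilium genes, and FoxM1 drives the genes of mitosis. FoxO proteins are held out of the nucleus by insulin and AKT signalling, and FoxP proteins repress transcription as dimers in brain, heart and lung.

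The family is recognised by its DNA-binding stretch, and the coding sequences below show how far it is shared by members of very different level. The longest open reading frame of each gene was used (GENCODE M21 transcripts, GRCm38). From these frames the word of 8 residues held whole by the most genes was chosen, and each gene was scored at its best match. The word lies in the recognition helix and was whole in 22 of the 42 genes, the highest count by that choice. A further 16 matched 7 of the 8 residues and 3 (Foxp1, Foxp2 and Foxp4) matched 6, so 41 genes matched at least 6. Foxred1 matched at best 2. The 48 bases around the word are printed 5′ to 3′ with its 24 bases in capitals (45 bases for Foxred1, whose best match lies near its start codon).
Foxc1: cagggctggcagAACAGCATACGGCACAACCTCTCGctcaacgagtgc
Foxd3: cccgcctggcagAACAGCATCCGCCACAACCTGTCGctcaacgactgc
Foxd4: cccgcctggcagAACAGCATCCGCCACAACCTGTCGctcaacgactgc
Foxf1: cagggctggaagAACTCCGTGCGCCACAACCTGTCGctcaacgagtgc
Foxf2: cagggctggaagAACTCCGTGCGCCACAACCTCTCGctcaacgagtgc
Foxk2: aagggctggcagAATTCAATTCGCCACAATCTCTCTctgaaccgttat
Foxj3: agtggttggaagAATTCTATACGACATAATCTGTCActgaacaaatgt
Foxm1: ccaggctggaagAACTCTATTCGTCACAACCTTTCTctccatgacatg
Foxn3: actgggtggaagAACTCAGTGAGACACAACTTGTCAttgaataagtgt
Foxo4: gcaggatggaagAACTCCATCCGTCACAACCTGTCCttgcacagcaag
Foxred1: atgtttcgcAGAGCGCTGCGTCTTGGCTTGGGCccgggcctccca

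The shared residues were written in many ways: the 22 genes with the whole word used 20 DNA versions of it. The version in Foxd3 and Foxd4 was the most frequent and was shared by 3 genes, with Foxl1 as the third. Foxd3 and Foxd4 shared the longest run of identical bases of the 861 pairs compared, 68 bases, and Foxc1 and Foxc2 followed with 53. These were the only pairs with 50 bases or more, and 6 pairs shared 40 or more. Reads within these runs may have been split between genes, as no source used here gives the read length. The word also lay at different places in the frame. In Foxp1, Foxp2 and Foxp4 it began after 75.6% to 77.7% of the codons, and in Foxb2, a factor of the early neural tube, after 13.8%.

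Of the 41 measured members, 23 (56.1%) reached 1 RPKM in both replicates. The same minimum was reached by 49.4% of all loci and 65.1% of the 19295 protein-coding loci, so the share among Fox genes lay between these backgrounds. Another 7 reached it in replicate 1 only (Foxa3, Foxb2, Foxd2, Foxd3, Foxh1, Foxn4 and Foxq1), none in replicate 2 only, and 11 in neither. Above 10 RPKM in both replicates stood 12 members: Foxk2, Foxp2, Foxp1, Foxj3, Foxm1, Foxn3, Foxred1, Foxo4, Foxp4, Foxn2, Foxc1 and Foxp3. The share of all loci above 10 RPKM was not computed, so this count is not set against a background. The median member stood at 3.94 and 2.15 RPKM, against 1.76 and 1.00 for all loci and 8.38 and 5.52 for protein-coding loci. Levels spanned from 0.0358 to 109 RPKM in replicate 1 and from 0 to 73.4 in replicate 2. The 5 members with the most reads held 47.8% and 52.4% of all Fox reads.

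**Figure D1:**
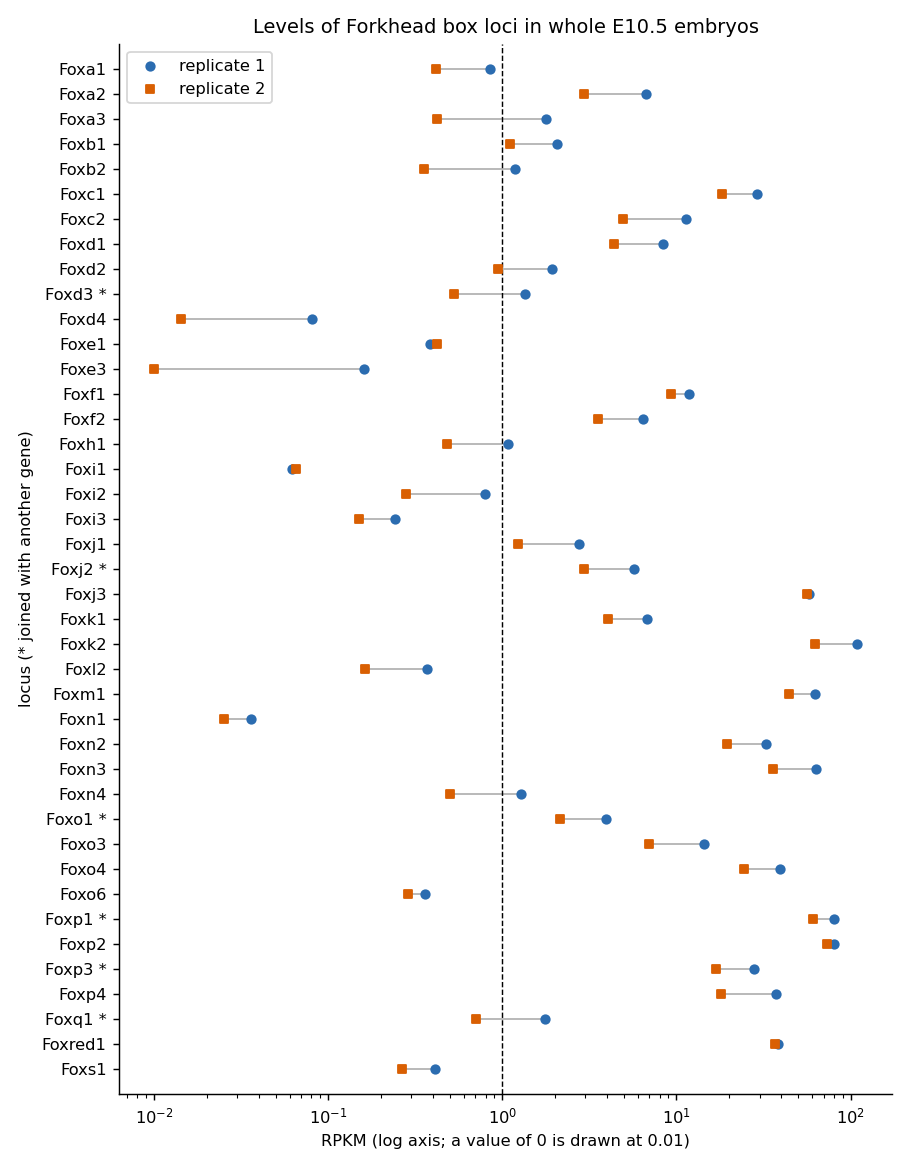
Level of each measured Fox locus in RPKM (horizontal log axis) in replicate 1 (circles) and replicate 2 (squares) of whole embryos at embryonic day 10.5, with the minimum of 1 RPKM as a dashed line. Members run from under 0.1 RPKM (Foxn1, Foxi1) to 109 RPKM (Foxk2 in replicate 1), and most replicate 2 values sit to the left of replicate 1.

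Libraries differed 6.42-fold in depth, with 18318181 and 117522171 summed counts. RPKM and counts together imply a 5.68-fold difference in library size. With 0 counts, up to 0.164 CPM (counts relative to the library sum) in replicate 1 and 0.0255 in replicate 2 remain possible. In replicate 1, 12 members rested on 20 reads or fewer, so their order is not resolved. Floors and the 95% Poisson intervals given with some levels cover counting error only.

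FoxK proteins, which bind chromatin with the Sin3 repressor and act in metabolism and autophagy, were split between the top and the middle of the family. Foxk2 stood at 109 and 62.2 RPKM (1391 and 6422 reads), a mean of 85.8 ± 33.3 (SD, n = 2). Its paralogue Foxk1, known from muscle progenitors, stood at 6.76 and 4.03 RPKM. Both replicates placed Foxk2 far above Foxk1, and the ranges did not overlap. The difference, Foxk1 minus Foxk2, was -3.74 ± 0.12 on the log2(RPKM + 1) scale (SD, n = 2). The call for a pair, beyond the spread, required 1 sign in both libraries and a mean difference over 2 SD of the replicate log2 ratio over the 1000 loci nearest in level. That limit was 1.23 for Foxk1 and Foxk2. An exact two-sided permutation test of 2 against 2 values cannot go below p = 0.333, so none was run. The 60-codon windows around the shared word were 88.3% identical in residues between the 2 genes.

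The FoxP genes formed the other high group. Foxp2, a regulator of brain and lung development, stood at 80.9 and 73.4 RPKM (77.2 ± 5.30, SD, n = 2). Foxp1, which acts in heart, motor neurons and lymphocytes, stood at 79.9 and 61.0 in a locus joined with Gm20696. Foxp4, a partner of both in lung and gut epithelium, stood at 37.3 and 18.04. Foxp1 and Foxp2 differed by -0.14 ± 0.17 (log2, limit 0.95), which lay within the spread. Foxp1 exceeded Foxp4 by 1.39 ± 0.44 (limit 1.24), a call that was lost without replicate 2 (1.08). In reads per kilobase of the longest listed transcript, scaled to the summed counts and with a pseudocount of 0.1, the same difference was 0.64 and not called (limit 0.99). Values by reads per kilobase below are on this scale, with limits of their own, and with a pseudocount of 1 as many pairs (6 of 18) were called. The longest transcript need not be the length behind the deposited RPKM.

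The Foxp3 locus read 27.8 and 16.9 RPKM (928 and 3654 reads). Foxp3 is the master regulator of regulatory T cells, but its locus here is joined with Ccdc22, Flicr and Ppp1r3f. The T cell markers measured beside it stood at a median of 0.112 and 0.0832 RPKM, and 3 of their 13 loci reached 1 RPKM in both replicates. The T cell receptor component Cd3d had 0 reads in both replicates, while Cd4 stood at 0.308 and 0.0413 RPKM. The 3 loci that passed were the kinase Lck (9.97 and 9.86), the pan-leukocyte gene Ptprc (1.57 and 1.26) and the joined locus of Rag1, Rag2 and B230118H07Rik (61.9 and 64.0). Summed over the 13 loci, T cell markers stood at 74.8 and 76.1 RPKM, most of it from that joined locus. How much of the joined Foxp3 value comes from Foxp3 was not tested. Foxp2 exceeded this locus by 1.78 ± 0.39 (limit 1.36), a call lost by reads per kilobase (0.53, limit 0.85) and by CPM (0.76, limit 0.99).

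FoxJ and FoxN genes each spanned a wide range of levels. Foxj3 stood at 57.9 and 56.2 RPKM (57.0 ± 1.19, SD, n = 2), though its CPM fell from 86.7 to 53.6. Foxj2, in a locus joined with an unnamed gene, stood at 5.73 and 2.96 RPKM, and Foxj1, the master gene of motile cilia, at 2.75 and 1.23. The replicates of these 3 loci did not overlap with each other. Foxj2 minus Foxj3 was -3.49 ± 0.51 log2 units (limit 1.15). Foxn3, a checkpoint repressor, stood at 63.0 and 36.0 RPKM and its relative Foxn2 at 32.5 and 19.5. Their ranges came close, and the difference of -0.89 ± 0.06 lay within the spread (limit 1.30). Foxn4, needed for retinal and spinal interneurons, read 1.28 and 0.501 RPKM. Foxn1, the thymic epithelial factor, read 0.0358 and 0.0252 RPKM from 1 and 4 reads, the lowest mean among the members. With 1 read, the 95% interval of Foxn1 in replicate 1 ran from 0.000905 to 0.199 RPKM. Foxn1 minus Foxn4 was -0.84 ± 0.42, within the limit of 1.09. It was called without replicate 2 (-1.14, limit 1.09), with a pseudocount of 0.1 (-2.81, limit 2.10) and by CPM (-0.92, limit 0.76).

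Foxm1, the driver of late cell-cycle genes, stood at 62.5 and 44.3 RPKM (1488 and 5854 reads). The FoxO genes, targets of insulin and stress signals, spread over 2 orders of magnitude. Foxo4 led with 39.1 and 24.4 RPKM, then Foxo3 with 14.3 and 6.94. The Foxo1 locus, joined with Gm20402, read 3.94 and 2.15, and Foxo6, known from the brain, 0.361 and 0.286. The replicate ranges of the 4 FoxO loci did not overlap, and the 3 pairs compared were beyond the spread. Foxo1 minus Foxo3 was -1.48 ± 0.21 (limit 1.26), Foxo3 minus Foxo4 -1.53 ± 0.21 (limit 1.26) and Foxo4 minus Foxo6 4.59 ± 0.41 (limit 0.92). By CPM, Foxo3 minus Foxo4 (-0.84, limit 0.95) was no longer called.

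Mesodermal members were led by Foxc1, which acts in somites, eye, kidney and vessels and stood at 29.2 and 18.3 RPKM. Its close paralogue Foxc2, known from lymphatic vessels and the skeleton, stood at 11.3 and 4.94. Foxc1 was higher in both replicates, by 1.49 ± 0.29 (limit 1.39). That call rested on replicate 2: without it the difference was 1.29 and not called, and by reads per kilobase it was 0.71 (limit 1.10). Reads per kilobase divided by 5844 and 2725 bases, where reads and RPKM imply 2.22 and 1.93 kilobases in both libraries. Foxf1, needed in splanchnic mesoderm and lung mesenchyme, stood at 11.8 and 9.32 RPKM, and Foxf2, known from palate and gut mesenchyme, at 6.45 and 3.53. Their residues were identical over the 60-codon window (100%) and their difference of 0.98 ± 0.29 lay within the spread (limit 1.22). Foxs1, a factor of pericytes and sensory neurons, read 0.410 and 0.265. Foxq1, known from stomach and hair, read 1.75 and 0.704 in a locus joined with A530084C06Rik.

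Among FoxD genes, Foxd1, the marker of kidney stroma and temporal retina, stood at 8.35 and 4.39 RPKM. Foxd2 followed at 1.92 and 0.940 and the locus of the neural crest factor Foxd3, joined with Gm23366, at 1.34 and 0.525. Foxd4 stood at 0.0806 and 0.0142 from 2 reads in each library. Foxd1 exceeded Foxd2 by 1.58 ± 0.15 (limit 1.13), with windows 98.3% identical, and the call was lost by reads per kilobase (1.22, limit 1.58). That scale divided by 5064 and 2592 bases, where reads and RPKM imply 1.75 and 1.56 kilobases in both libraries. Foxd2 and Foxd3 differed by 0.33 ± 0.02, within the spread (limit 1.11). The non-coding gene Foxd2os, named for its place opposite Foxd2, read 12.04 and 9.40 RPKM. It lay 2.29 ± 0.19 log2 units above Foxd2 (limit 1.21), a comparison chosen after its values were seen. No source used here says whether the authors counted by strand, and reads of this pair cannot be told apart where the genes overlap.

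Of the endodermal FoxA genes, Foxa2 stood above the median member and Foxa1 and Foxa3 below it. Foxa2, needed for node, floor plate and endoderm, stood at 6.71 and 2.94 RPKM. Foxa3, a liver factor, read 1.79 and 0.422, and Foxa1, its relative in lung, gut and prostate, 0.854 and 0.415. Foxa2 was above both others in each replicate. Foxa1 minus Foxa2 was -1.77 ± 0.41 and Foxa2 minus Foxa3 1.47 ± 0.00 (limit 1.17 for each). The second was not called by reads per kilobase (1.25, limit 1.59) or CPM (0.91, limit 0.98). Its SD of 0.00 holds only with the pseudocount of 1. Without a pseudocount, Foxa2 was 3.75-fold above Foxa3 in replicate 1 and 6.96-fold in replicate 2. FoxB genes of the neural tube were near the minimum, Foxb1 at 2.05 and 1.10 and Foxb2 at 1.18 and 0.353, a difference of 0.56 ± 0.11 within the spread (limit 1.13).

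The remaining members mark small organs or other stages. Foxh1, the partner of Smad proteins in Nodal signalling, read 1.08 and 0.480 RPKM. The thyroid factor Foxe1 read 0.386 and 0.423 and the lens factor Foxe3 0.161 and 0, from 2 and 0 reads. Foxe3 was the only member without a read in a library, while 12.6% of protein-coding loci had 0 reads in at least 1 of the 2. Foxi1, known from the inner ear and kidney, read 0.0615 and 0.0650, and Foxi3, known from pharyngeal and otic ectoderm, 0.242 and 0.149. Foxi2 read 0.796 and 0.280, and Foxl2, the ovarian and eyelid factor, 0.370 and 0.163. Foxe1 against Foxe3 (0.38 ± 0.18, limit 0.83) and Foxi2 against Foxi3 (0.34 ± 0.27, limit 0.94) lay within the spread. Foxred1, which is no forkhead gene, read 38.5 and 36.6 RPKM, inside the range of the highest forkhead genes.

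Of 19 measured paralogue pairs, 11 were beyond the replicate spread. The share of other pairs of loci beyond it was not computed, so the count cannot be called a trait of paralogues. Foxa1 with Foxa2, Foxj2 with Foxj3, Foxk1 with Foxk2 and Foxo4 with Foxo6 were beyond it under each alternative run for them. Foxj2 lies in a joined locus, so its pair was not run with joined loci left out. Neighbours in the order of mean RPKM were never beyond it (0 of 40). Sorting by the same values keeps neighbours close, so no conclusion is drawn from that count. Foxk2 lay within the spread of Foxp2, Foxp1, Foxj3, Foxm1 and Foxn3 and beyond that of Foxred1, so the 6 highest forkhead loci are not resolved from the top down.

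**Figure D2:**
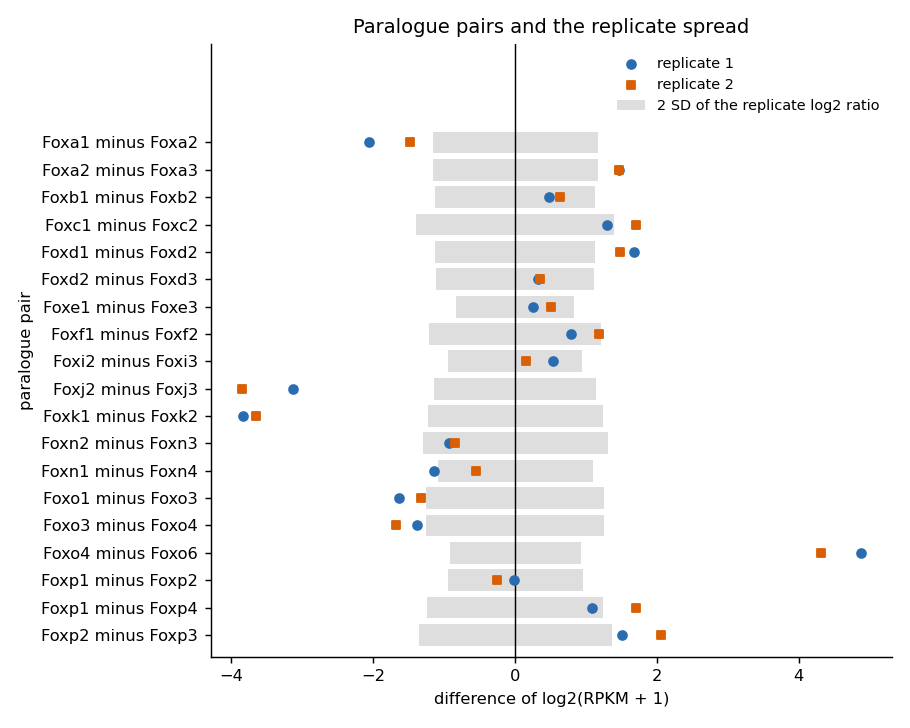
Difference of log2(RPKM + 1) between paralogues (horizontal axis) for 19 pairs, in replicate 1 (circles) and replicate 2 (squares), with grey bars for 2 SD of the replicate log2 ratio at that level. Foxj2 minus Foxj3 and Foxk1 minus Foxk2 lie far to the left and Foxo4 minus Foxo6 far to the right, while Foxp1 minus Foxp2 lies inside its bar.

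The length behind each RPKM value affects this order. Dividing reads by RPKM gives 0.927 and 1.32 kilobases for Foxk2, whose longest listed transcript has 5029 bases. Among the 24 members whose locus lists several transcripts, 9 had the same implied length in both libraries within 1%. All 16 measured members with 1 transcript and reads in both did so. That was fixed in advance, as the library sizes were fitted on loci with 1 transcript. Counted instead as CPM per kilobase of the longest GENCODE M21 transcript (reads per kilobase, for short), Foxred1 came first with 17.7 and 15.01 by mean of both replicates. Foxj3 (18.1 and 11.2), Foxm1 (17.5 and 10.7) and Foxp1 (16.05 and 10.02) followed, and Foxk2 came next with 15.1 and 10.9. Foxp2, with 11.9 and 8.42, lay behind Foxo4 (13.4 and 7.18). Over the 40 members with a length, Spearman's rho between the scales was 0.980, a description across genes that share the same reads. By mean of both replicates Foxn1 was lowest on both scales, at 0.0170 and 0.0106 CPM per kilobase. In replicate 2 alone Foxd4 (0.00867 CPM per kilobase) and Foxe3 (0) were lower, and all 3 rest on few reads.

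**Figure D3:**
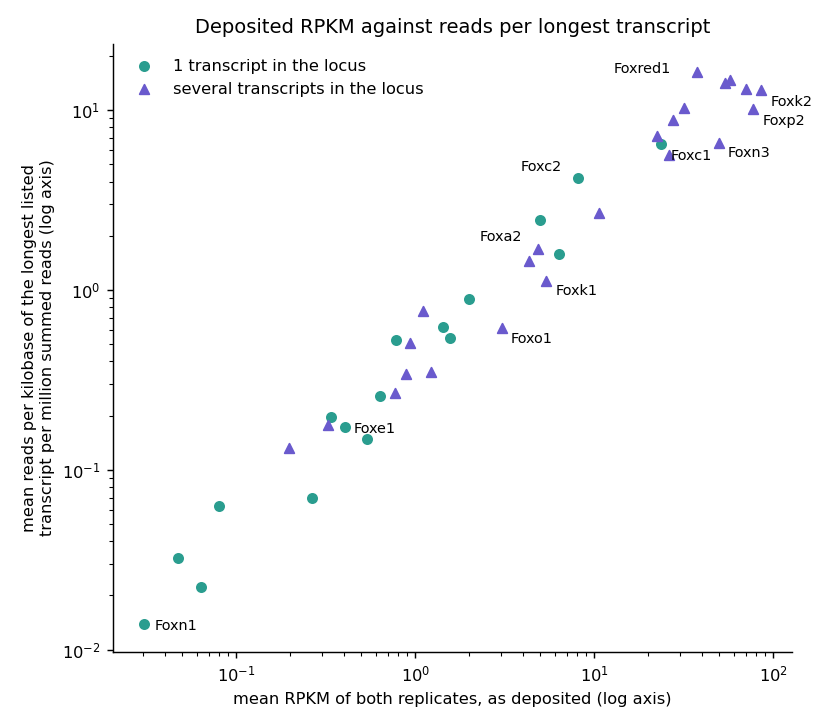
Mean deposited RPKM (horizontal log axis) against mean CPM per kilobase of the longest listed transcript (vertical log axis) for 40 members, with loci of 1 transcript as circles and of several transcripts as triangles. Foxred1 stands above Foxk2, Foxp2 and Foxn3 on the vertical axis although its RPKM is lower.

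The replicates ranked the members alike but differed in level. Spearman's rho between replicates was 0.988 over members and 0.982 over protein-coding loci, again a description across genes. Of 41 members, 39 had a lower RPKM in replicate 2, with Foxe1 and Foxi1 higher. Among loci with any read, 77.0% of protein-coding and 72.1% of all loci were lower in replicate 2. By CPM all 41 members were lower, as were 85.3% of protein-coding loci with any read. The median log2 ratio of (RPKM + 1), replicate 2 over replicate 1, was -0.60 for members, -0.25 for protein-coding loci and -0.16 for all loci. With a mean of 1 RPKM or more, 26 members had a median of -0.69 and 13082 protein-coding loci -0.37. Once the replicates were rescaled to a median ratio of 1 over loci with a mean of 1 RPKM or more (a shift of -0.43 log2 without pseudocount), 33 of 41 members were lower in replicate 2, against 50.7% of protein-coding loci. Foxj3 (-0.04), Foxred1 (-0.07) and Foxp2 (-0.14) had the ratios nearest 0 among the members above 10 RPKM. From replicate 1 to replicate 2, the implied length of Foxj3 fell from 2.00 to 1.44 kilobases and its CPM from 86.7 to 53.6. For Foxp2 the length fell from 1.33 to 1.17 kilobases and CPM from 80.7 to 56.9. How far the ratios of Foxj3 and Foxp2 reflect the changed length was not tested. Foxc2 (-1.05) and Foxp4 (-1.01) were the only members past 2-fold on the log2(RPKM + 1) scale, where 4.03% of protein-coding and 6.81% of all loci were. The pseudocount of 1 shrinks the ratios of low members, and with 0.1 and 0.01 the count was 13 and 17. The shares of all loci with these pseudocounts were not computed. Without a pseudocount Foxa3, for example, was 4.24-fold and Foxa2 2.28-fold lower in replicate 2.

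Markers of other cells moved differently between the libraries. The 5 embryonic red cell markers summed to 4214 RPKM in replicate 1 and 11686 in replicate 2, with the embryonic globin Hbb-y at 1746 and 6474. Trophoblast and decidua markers summed to 29.3 and 33.5 RPKM and 3 of 10 loci reached 1 RPKM in both replicates. Single markers moved both ways: the decidual hormone Prl8a2 stood at 1.23 and 6.38 RPKM, the trophoblast hormones Prl2c2 at 5.20 and 3.07 and Prl3b1 at 1.90 and 0.970. The trophoblast markers Tpbpa and Psg21 had 0 reads in both. The part of red cells, decidua or depth in the lower Fox values of replicate 2 was not tested.

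**Figure D4:**
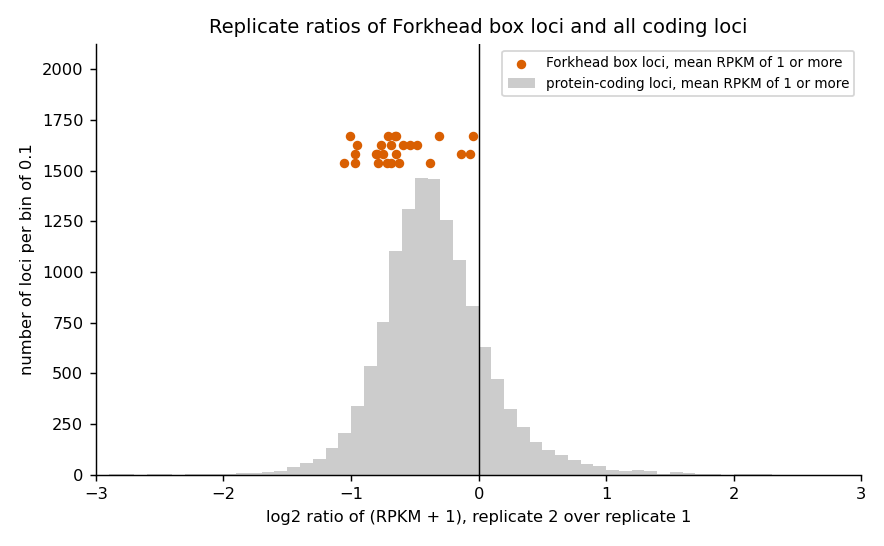
Log2 ratio of (RPKM + 1), replicate 2 over replicate 1 (horizontal axis), of protein-coding loci with a mean of 1 RPKM or more (grey histogram, number of loci per bin) and of the 26 Fox loci at that level (points, heights arbitrary). The Fox points lie between -1.05 and -0.04, all left of 0.

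Members were also described by gene structure. By the transcript with the longest reading frame, 12 measured members have 1 exon and 29 have several. Of the 1-exon members 3 reached 1 RPKM in both replicates (Foxc1, Foxc2 and Foxd1), and the median was 1.26 and 0.474 RPKM. Of the members with several exons 20 reached it, with a median of 6.71 and 3.53 RPKM, or 19 of 28 with 6.58 and 3.25 without Foxred1. Per kilobase of the longest transcript the medians were 0.456 and 0.179 against 2.16 and 0.978. No test was made of this difference, and the same split was not computed over all protein-coding loci. Exon number goes with subfamily, so members of a class are not independent.

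Promoters were available for 27 members in a RefSeq table (GRCm38.p6), as the 250 bases before the start. The median Fox promoter held 17.5 CpG and 63.0% G and C, against 6.0 CpG and 52.4% over 32851 promoters. Of the 24 members with 1 promoter, 16 held 15 CpG or more and 9 of these reached 1 RPKM in both replicates. Of the 8 with fewer (Foxb2, Foxd1, Foxd4, Foxe3, Foxi1, Foxi2, Foxn1 and Foxn3), 2 reached it, Foxd1 and Foxn3. Over all promoters, 74.6% held 15 CpG or fewer. The same split by level was not computed over all promoters, so it cannot be called a trait of Fox genes. The promoters of Foxk2, the member of highest mean RPKM, and of Foxi1, among the lowest, are printed as examples, with each CG in capitals. The Foxk2 promoter lies at chr11:121259737-121259986 on the plus strand and holds 48 CpG, a number met or exceeded by 0.186% of promoters. The Foxi1 promoter lies at chr11:34208090-34208339 on the minus strand and holds 4 CpG, with 44.4% of promoters holding as few.
Foxk2: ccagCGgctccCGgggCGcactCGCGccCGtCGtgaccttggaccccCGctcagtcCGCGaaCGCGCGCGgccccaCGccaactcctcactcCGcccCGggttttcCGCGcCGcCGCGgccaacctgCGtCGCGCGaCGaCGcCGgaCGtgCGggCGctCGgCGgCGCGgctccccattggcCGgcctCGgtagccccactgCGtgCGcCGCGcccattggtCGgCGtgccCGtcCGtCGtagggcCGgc
Foxi1: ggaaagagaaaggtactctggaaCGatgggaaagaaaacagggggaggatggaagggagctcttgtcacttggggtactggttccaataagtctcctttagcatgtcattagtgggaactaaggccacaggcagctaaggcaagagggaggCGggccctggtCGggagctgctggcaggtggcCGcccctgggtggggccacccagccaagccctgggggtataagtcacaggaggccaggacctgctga

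The forkhead core motif TGTTTAC, searched on both strands, was found in 3.17% of all promoters and in 1 of the 32 Fox promoters, that of Foxa1. It is printed with its flanks, as read on the gene's strand at chr12:57546230-57546268 (minus strand), with the motif in capitals in its reverse complement form. Its first base lies 141 bases before the start. A TATAAA word was found in 12.4% of all promoters and in 3 Fox promoters, of Foxa2, Foxa3 and Foxp3. A match is a description of letters and no measure of binding.
Foxa1: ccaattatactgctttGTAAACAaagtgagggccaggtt

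Some members are neighbours in the genome, by gene order in the RefSeq table of GRCm38.p6. On chromosome 13, Foxq1, Foxf2 and Foxc1 follow each other with 2 genes between each, at 1.75, 6.45 and 29.2 RPKM in replicate 1. On chromosome 8, Foxf1 and Foxc2 have 1 gene between them and stood at 11.8 and 11.3 in that replicate, but at 9.32 and 4.94 in replicate 2. On chromosome 4, Foxd2 and Foxe3 have 1 gene between them and stood at 1.92 and 0.161 in replicate 1.

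Genes that work with Fox factors were taken from 17 lists of 236 entries, of which 230 matched a locus. A list's share at the minimum is read against the 65.1% of protein-coding loci. All 14 FoxK partner loci reached 1 RPKM in both replicates (median 60.05 and 48.5), with the corepressor scaffold Sin3a at 226 and 177 and Mbd5 at 197 and 179, both in joined loci. The glycosyltransferase Ogt stood at 162 and 117, and Mbd6 was lowest at 8.12 and 2.03. All 19 FoxM1 loci reached it (77.2 and 71.4), among them the mitotic genes Birc5 (202 and 285) and Cenpf (211 and 249), a joined locus with the kinesin Kif20a (372 and 352), and Lin37 lowest (9.05 and 6.93). Of 13 FoxP partner loci 12 reached it (82.6 and 74.3), led by the NuRD helicase Chd4 at 726 and 1059, with Ctbp2 (344 and 308, joined) and the deacetylase Hdac2 (290 and 439). Nfatc2, which pairs with FOXP3 in T cells, was lowest at 1.39 and 0.533.

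FoxO signalling was covered on both sides. All 24 upstream loci reached the minimum (median 90.0 and 62.0), with the phosphoprotein adaptors Ywhae (659 and 994) and Ywhaz (227 and 229), the nuclear exporter Xpo1 (339 and 631), and the kinase subunit Pik3cb lowest (9.89 and 5.19). Of 19 target loci 13 reached it (14.2 and 6.43), a share near the 65.1% of protein-coding loci. The targets were led by Txnip (87.6 and 78.8, joined), the cyclin Ccng2 (72.7 and 69.6) and the mitochondrial dismutase Sod2 (53.7 and 53.6). Pck1, a gluconeogenic enzyme, was lowest at 0.107 and 0.0741. All 12 complex I assembly loci, the neighbours of Foxred1 in function, reached the minimum (36.2 and 25.4), so Foxred1 at 38.5 and 36.6 stood near their median.

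Lists of restricted lineages were mixed, and shares near the 65.1% of protein-coding loci are no trait of a list. All 17 loci of FoxC, FoxF and FoxL1 mesenchyme genes reached the minimum (21.9 and 16.04), with Nkx2-3 lowest (1.29 and 1.29), as did all 9 of FoxD3 and neural crest (15.3 and 7.44), with Mitf lowest (6.24 and 3.79). Of 15 FoxA partner loci 10 did (3.26 and 2.61), led by Onecut1 (38.9 and 24.0, joined), Spon1 (28.4 and 17.2) and the floor plate guidance gene Ntn1 (27.2 and 19.3), with the pancreatic factor Pdx1 lowest (0 and 0.0339). Of 20 motile cilium loci 15 did (2.33 and 2.05), with the tubulin Tuba1a (395 and 660), Rfx3 (40.5 and 23.5) and Ccdc40 (38.3 and 21.04) highest and Mcidas lowest (0.510 and 0.112). In the Nodal list 9 of 15 did (4.45 and 4.36), with the Smad genes Smad2 (112 and 106) and Smad4 (90.3 and 73.7) high and the ligand Nodal at 0.0524 and 0.0369. In the FoxE and FoxI list of placode, thyroid and lens genes 7 of 14 did (3.62 and 1.88), with the placode gene Eya1 at 21.7 and 14.4, the lens chaperone Cryab at 18.4 and 10.9, and the anion transporter Slc26a4 lowest (0.0285 and 0.0652). In the thymic epithelium list 4 of 8 did (2.77 and 1.43), with Ccl25 at 29.4 and 20.3 in a joined locus, Krt8 at 14.3 and 9.94, and the thymic protease Prss16 lowest (0 and 0.0308). The thymoproteasome subunit Psmb11 read 0.158 and 0.0416 from 2 and 3 reads, beside the 1 and 4 reads of Foxn1.

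**Figure D5:**
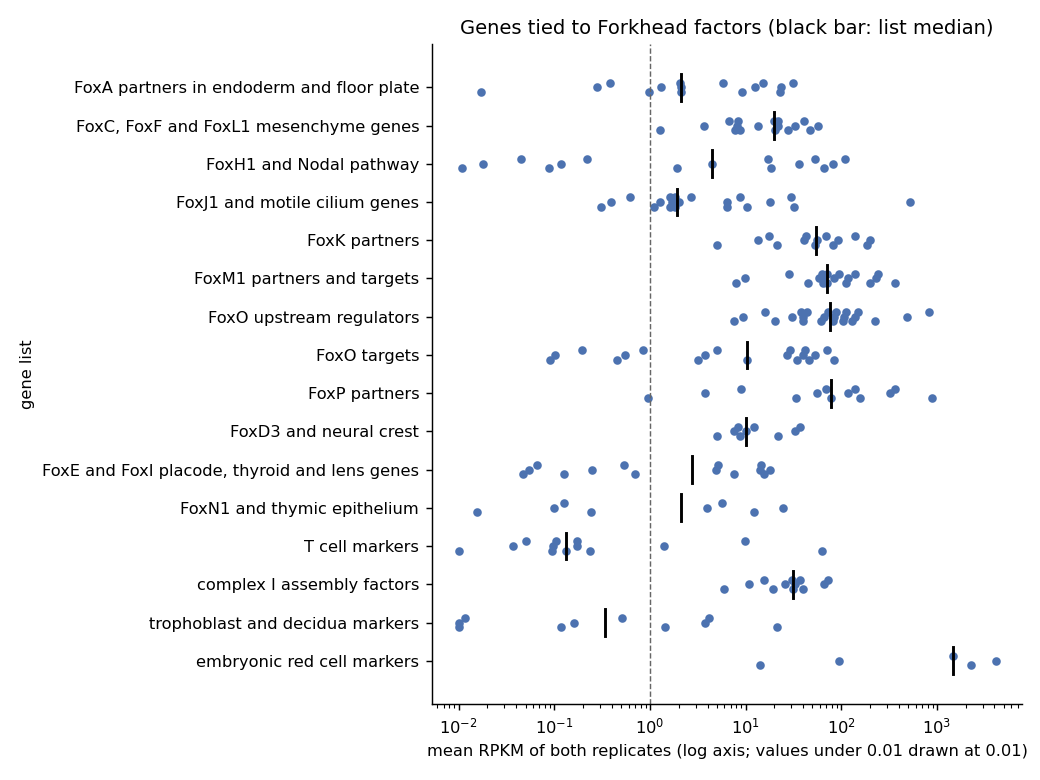
Mean RPKM of both replicates (horizontal log axis, values under 0.01 drawn at 0.01) of each locus in 16 gene lists, 1 row per list, with the list median as a black bar and 1 RPKM as a dashed line. The lists of FoxK, FoxM1 and FoxO upstream genes lie wholly above the minimum, while most T cell markers lie below it.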

How the data were processed

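Total RNA was measured in 2 replicates of 1 group. Per the submitters' processing notes TopHat and the mouse build mm9 were used; for the read counter, filters, strand setting and read length, the sources used here give nothing. Per the file headers, the authors deposited RPKM and read counts (whole numbers, not normalized) per locus. RPKM was kept as the main unit. The deposited counts served for depth, 95% Poisson intervals (counting error only) and CPM.

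Rows that named identical genes were added up into 34624 loci. The members and the gene lists were chosen with earlier results of these data known. Named genes are all members, the genes of the 20 listed paralogue pairs (19 measured), genes joined with a member, and the 3 highest loci, the lowest locus and any gene at 0 in both replicates of each list; a few of these are not printed, and Cd4, Nodal, Psmb11, Prl3b1 and Foxd2os were chosen after their values were seen. Log ratios use log2(RPKM + 1), which understates differences of low genes. As there is 1 group, no test was run. Lengths and coding stretches came from GENCODE M21 transcripts (GRCm38), using the longest open reading frame, and promoters from RefSeq (GRCm38.p6). No coordinates of mm9 were used. Python 3.11.15, pandas 2.3.3, SciPy 1.17.1 and Biopython 1.88 were used. The 2-fold call and the SD of the replicate log2 ratio were tested on simulated data without a general shift between libraries. The SD was tested at 1 level only, on unchanged loci with many counts, so SDs at low levels were not covered. The rule for pairs was not tested. Alternatives covered the minimum, pseudocount, filters, scaling, joined loci, length and each replicate left out. Some items are not reported here.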

Additional observations from a re-analysis of the deposited data

How the results depend on the processing

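No paired analysis was possible because the series has only 1 group. The number of members at the minimum (23) was 17 to 32 under other minimums, units, joined loci left out, Foxred1 left out and each replicate left out. Of the 41 members, 26 kept their side of the minimum in all of these. The median member level (3.05 RPKM, mean of both replicates) was 10.6 among members with a mean of 1 RPKM or more and 0.825 in CPM per kilobase of the longest transcript. It was 2.15 to 3.94 with 1 replicate left out. The count past 2-fold between replicates (2) was 13 and 17 with pseudocounts of 0.1 and 0.01. It was 21 with the replicates scaled to equal sums, 6 by CPM and 0 rescaled to a median ratio of 1. The count thus depends on the scaling, and shares of all loci at these settings were not computed. Pairs beyond the spread (11) were 7 of 13 with joined loci left out, 4 at 3 SD, 6 of 18 by reads per kilobase with a pseudocount of 0.1 and likewise 6 with 1, and 10 to 11 with 1 replicate left out. Foxp1 minus Foxp2, within the spread, reversed sign by reads per kilobase (0.34 with a pseudocount of 0.1, 0.31 with 1) and by CPM (0.42). Partner list loci at the minimum (177 of 229) were 156 to 187. Reads per kilobase, CPM for pairs, the median rescaling and leaving out Foxred1 were added after seeing the data, and causes were not tested. Depth limits the 12 members with 20 reads or fewer in replicate 1. Groups of 2 allow no outlier check, and 2 replicates give a coarse spread.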
